A study of Mus musculus with 45 samples.

Results

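The Pramel and Oog genes are a mouse family of leucine-rich repeat proteins related to the human cancer-testis antigen PRAME, and their levels were examined in fully grown oocytes (FGOs) and late two-cell embryos. The members were the rows of the deposited expression table whose symbol begins with Pramel, Pramef or Oog followed by a digit. 39 of 26214 genes met this rule, all of them under the symbols Pramel or Oog, and each has a protein-coding transcript in RefSeq. The control mice were H3f3b K36M-flox/+, and the K36M mice carried the same allele together with Gdf9-Cre, so the controls also held the unrecombined knock-in allele. The Gdf9 promoter drives Cre in oocytes, and after recombination the H3f3b locus makes histone H3.3 with lysine 36 changed to methionine and an HA tag, which lowers H3K36me2. FGOs came from the ovaries of hybrid C57BL/6 / 129 females 3 to 4 weeks old, with 5 oocytes pooled in each library (3 control and 3 K36M libraries). The two-cell embryos came from in vitro fertilization after superovulation, with the JF-1 strain in the cross, and were sequenced singly 31 to 32 h after fertilization (7 control and 8 K36M oocyte-derived embryos). Control two-cell replicate 4 was left out, as the study left it out for a technical problem.

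In the best studied members, the PRAME protein family acts as the part of an ubiquitin ligase that picks the substrate: the leucine-rich repeat protein binds CUL2 through elongins and brings a target to it. PRAMEL7 in particular is known in naive embryonic stem cells for the turnover of UHRF1, a partner of the maintenance methyltransferase DNMT1. The Oog genes (oogenesins) were named for their transcripts in growing oocytes, and many family members sit in tandem arrays that arose by gene duplication, so copies can be alike over long stretches.

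The unit is TPM, which scales the reads of a gene by its length and then brings every library to the same total. TPM keep no record of depth. By the read totals the study lists, which entered no test here, every FGO library was sequenced more deeply than any embryo. The table listed between 16707 and 18559 genes above 0 in the FGO libraries, between 12115 and 17329 in the control embryos and between 10894 and 14879 in the K36M embryos. The 12 oocyte markers summed to between 18819 and 19226 TPM in control FGOs, between 16897 and 18159 in K36M FGOs and between 1191 and 4508 in the embryos. The 8 two-cell markers summed to at most 73.9 TPM in FGOs and to between 270.4 and 2440 in the embryos, so both stages matched their labels. Of the 8 granulosa markers, Nr5a2 gave the largest median in each group. The defining genes Amh, Foxl2 and Fshr had medians of at most 3.20 TPM in each of the 4 groups, although Foxl2 reached 72.5 TPM in a control and 103.9 TPM in a K36M embryo. Other granulosa genes were present in the FGO libraries of both genotypes: Cyp19a1 at 18.5 to 31.0 TPM, Inha at 5.08 to 15.03, Kitl at 8.82 to 14.5 and Hsd17b1 at 2.04 to 10.2. The summed list reached 124 to 137 TPM in control and 134 to 205 TPM in K36M FGOs, and 77.8 to 419 TPM in the embryos, and its part in the results was not tested. The H3f3b transcript averaged 293 ± 24.6 TPM (SD, n = 3) in control and 398 ± 20.8 (n = 3) in K36M FGOs, and 497 ± 234 (n = 7) and 616 ± 204 (n = 8) in the embryos; the table does not separate the mutant allele.

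How far these genes can be told apart was examined first, because the reads were 53 bases long. 17 of the 39 members had more than 50% of their 53-base exon windows elsewhere on the assembled chromosomes of the mm10 genome, and 7 members (Pramel6, Pramel32, Pramel1, Pramel12, Pramel23, Pramel15 and Pramel13) had none. How reads with several matches were handled is not given in the sources used here. Pramel37 and Pramel50, whose coding sequences are 100% identical and whose windows all occur elsewhere, held identical values in every library, 9 of them above 0. Their reads with several matches were therefore not all dropped, and their levels cannot be told apart. The next closest pair was Pramel14 and Pramel30, with 99.3% identity, 10 differences over 1428 coding bases and 74.1% of windows elsewhere. The stretch of 60 coding bases with the most differences between these 2 copies (coding bases 1323 to 1382, differing bases in capitals, mm10) shows how few positions separate them:
Pramel14 (chr4:143991490-143991549, minus strand): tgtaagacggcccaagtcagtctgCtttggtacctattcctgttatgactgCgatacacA
Pramel30 (chr4:144333043-144333102, plus strand): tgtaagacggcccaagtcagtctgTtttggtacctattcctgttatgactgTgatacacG
Oog1 on chromosome 12 and Pramel25 on chromosome 4 were 96.1% identical, and Oog1 had 96.1% of its windows elsewhere. Their stretch with the most differences (coding bases 373 to 432) holds 8 differences in 60 bases:
Pramel25 (chr4:143793560-143793619, plus strand): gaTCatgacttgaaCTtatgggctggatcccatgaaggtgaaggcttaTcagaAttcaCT
Oog1 (chr12:87606822-87606881, plus strand): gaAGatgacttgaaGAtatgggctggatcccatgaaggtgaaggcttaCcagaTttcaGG
At 95% identity or more, 8 of 741 pairs were near-identical, and they joined into the groups Pramel20 with Pramel31, Pramel25 with Pramel29 and Oog1, Pramel14 with Pramel30, Pramel34 with Pramel47, Pramel37 with Pramel50, and Pramel42 with Pramel48. The median identity over all pairs was 60.8%. Values of single copies in these groups are therefore uncertain, and sums are given for several of these groups. A read counted for more than 1 copy would enter such a sum more than once. Members outside these groups also had windows elsewhere, such as Pramel4 (95.1%), Pramel51 (67.2%), Pramel16 (58.1%), Oog2 (51.2%), Pramel27 (48.5%) and Pramel26 (48.0%). Their single values are uncertain as well.

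As a whole, the members took a larger part of the transcripts of oocytes than of embryos. Their summed TPM was 8020 ± 35.1 (SD, n = 3) in control FGOs, 7045 ± 844 (n = 3) in K36M FGOs, 3131 ± 519 (n = 7) in control embryos and 2966 ± 742 (n = 8) in K36M embryos. The 2 FGO groups overlapped (7983 to 8053 against 6362 to 7989 TPM, with 1 K36M library inside the control range), and both FGO groups lay above both groups of embryos, whose highest sum was 4310 TPM. In bulk libraries, a lower level in each cell and a smaller share of the RNA cannot be told apart.

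Control two-cell embryos were compared with control FGOs to separate maternal from zygotic members. Here a member is called maternal when it was lower in the embryos past the threshold and zygotic when it was higher; the names stand for this direction alone. Of the 35 members tested, 14 were maternal and 14 zygotic (limma on log2(TPM + 1), Benjamini-Hochberg adjusted p under 0.05), where the same test called 26.6% of all 17358 genes, 13.4% higher and 13.2% lower. The embryos all lay above the oocytes for 13 members and all below for 15 (14.1% and 18.2% of all genes). A member that is high at 1 stage can pass the filter on mean TPM through that stage, so these counts are a description. The stages also differ in pooled oocytes against single embryos, in 10 + 10 against 10 + 13 PCR cycles, in sequencing depth and in the paternal genome, and these cannot be told apart from the stage.

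**Figure D1:**
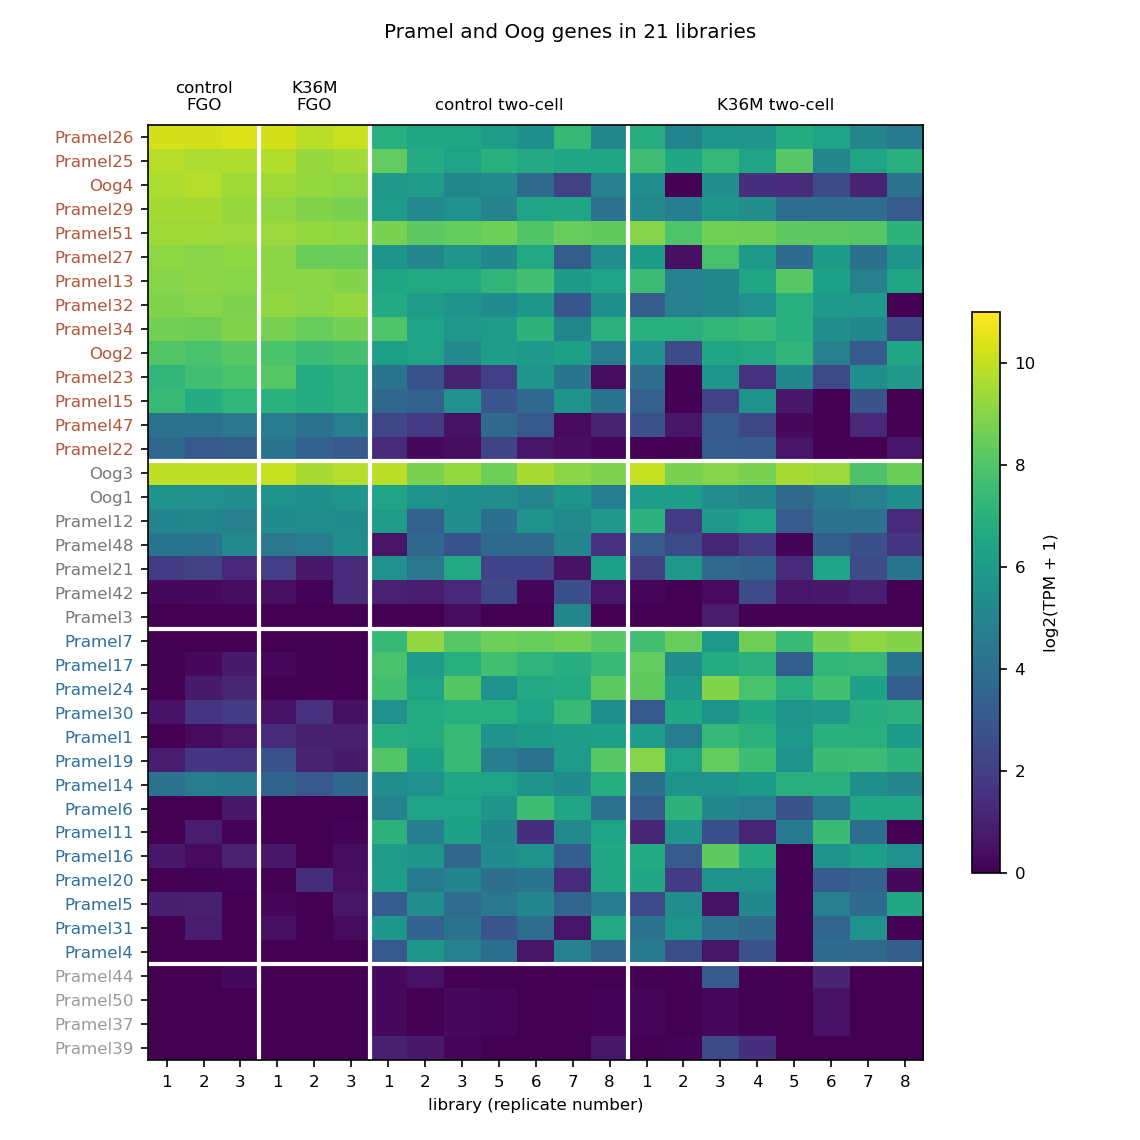
The 39 members (rows) in the 21 libraries (columns, numbered by replicate within each group), coloured by log2(TPM + 1). The upper 14 genes (red names) are higher in the 6 FGO libraries than in most embryos, Pramel22 and Pramel47 at low levels. The 14 genes with blue names are, except for Pramel14, at 0 or low in FGOs and are present in most embryos. The 4 lowest genes are near 0 in nearly every library.

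Most maternal members were abundant transcripts of FGOs, with the exception of Pramel22 and Pramel47. For embryos the 3 values of each group are the lowest, the median and the highest, and for FGOs those of replicates 1, 2 and 3. Pramel26, the highest member in FGOs, stood at 1258, 1231 and 1385 TPM in the control and 1237, 919 and 1075 TPM in the K36M libraries. Pramel26 fell to 31.1, 90.3 and 164 TPM in control and 22.2, 52.7 and 114 TPM in K36M embryos. Its stage difference in controls was -4.04 ± 0.48 on log2(TPM + 1) (SE, adjusted p = 8.45e-07), and no embryo reached an oocyte library. Pramel25 had 893, 804 and 822 TPM in control and 854, 633 and 707 TPM in K36M FGOs. Pramel25 fell to 82.3, 104 and 328 TPM in control and 33.2, 109.9 and 279 TPM in K36M embryos (-2.83 ± 0.46 in controls, adjusted p = 6.11e-05). It kept the highest median in control embryos among the maternal members other than Pramel51. Its near-identical partner Pramel29 had 730.4, 739 and 635 TPM in control and 585, 482 and 435 TPM in K36M FGOs. Pramel29 fell to 17.1, 46.1 and 86.3 TPM in control and 7.99, 20.2 and 55.8 TPM in K36M embryos (-3.91 ± 0.53, adjusted p = 5.22e-06). The sum of Pramel25, Pramel29 and Oog1 fell likewise, from 1587 ± 88.1 TPM (n = 3) in control FGOs to 231 ± 112 TPM (n = 7) in control embryos, although Oog1 itself did not pass the test, and the part of shared reads was not tested.

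Oog4, an oogenesin with only 0.675% of its windows elsewhere, had the largest fall of the maternal members in controls. It held 789, 863 and 682 TPM in control and 682, 608 and 563 TPM in K36M FGOs. Oog4 fell to 3.41, 32.4 and 67.4 TPM in control and 0, 3.27 and 42.2 TPM in K36M embryos (-4.88 ± 0.97, adjusted p = 0.000586). The control embryos spread over a wide range, and every one lay below the oocytes. Pramel27 held 559.8, 528 and 555 TPM in control and 545, 371 and 359 TPM in K36M FGOs. Pramel27 fell to 8.45, 40.5 and 101 TPM in control and 0.357, 54.8 and 219 TPM in K36M embryos (-3.83 ± 0.94, adjusted p = 0.00385). Its K36M embryos spread more widely than its control embryos. Pramel32, on chromosome 4 but far from the main array and with none of its windows elsewhere, held 482, 511 and 474 TPM in control and 585, 532 and 607 TPM in K36M FGOs. Pramel32 fell to 6.78, 51.0 and 105 TPM in control and 0, 39.1 and 123 TPM in K36M embryos (-3.50 ± 0.95, adjusted p = 0.00825, lost with a pseudocount of 0.1 at an adjusted p of 0.0590). In all 3 genes the stages did not overlap in either genotype.

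Pramel13, whose windows occur nowhere else, kept more of its level. It held 505, 543 and 524 TPM in control and 550.4, 548 and 502 TPM in K36M FGOs. Pramel13 fell to 63.2, 102 and 212 TPM in control and 26.7, 80.9 and 278 TPM in K36M embryos (-2.29 ± 0.55, adjusted p = 0.00308). The FGO libraries of both genotypes were nearly level in this gene. Pramel34, from chromosome 5, held 417, 397 and 478 TPM in control and 427, 346 and 414 TPM in K36M FGOs. Pramel34 fell to 31.9, 81.4 and 251 TPM in control and 3.96, 120.0 and 175 TPM in K36M embryos (-2.25 ± 0.76, adjusted p = 0.0316). Its sum with the near-identical Pramel47 went from 448 ± 43.9 TPM (n = 3) in control FGOs to 113 ± 74.5 TPM (n = 7) in control embryos. Oog2 held 265, 229 and 287 TPM in control and 236, 187 and 218 TPM in K36M FGOs. Oog2 fell to 23.8, 71.4 and 82.5 TPM in control and 4.75, 67.0 and 145 TPM in K36M embryos (-2.20 ± 0.74, adjusted p = 0.0304). The calls of Oog2 and Pramel34 in controls were lost without any 1 of the FGO control libraries, with adjusted p between 0.0795 and 0.105 for Oog2 and between 0.0854 and 0.106 for Pramel34. Both were also lost with all genes above 0 tested (adjusted p = 0.0521 and 0.0589), Oog2 with control embryo replicate 4 added (0.0600) and Pramel34 without a mean-variance trend (0.0521).

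The remaining maternal members spanned a wide range of levels. Pramel23 held 152, 204 and 234 TPM in control and 283, 107 and 133 TPM in K36M FGOs. Pramel23 fell to 0.300, 5.92 and 53.04 TPM in control and 0, 24.2 and 60.9 TPM in K36M embryos (-4.66 ± 1.15, adjusted p = 0.00382). Its control embryos ranged widely. Pramel15, with no windows elsewhere, held 172, 110.0 and 151 TPM in control and 129, 111 and 135 TPM in K36M FGOs. Pramel15 fell to 6.57, 12.5 and 51.5 TPM in control and 0, 2.01 and 48.4 TPM in K36M embryos (-2.96 ± 0.95, adjusted p = 0.0233). Without 1 of the FGO control libraries its adjusted p in controls was between 0.0615 and 0.0957, and with a pseudocount of 0.1 it was 0.145. Pramel51, which is 94.3% identical to Oog1, held 692, 681 and 658 TPM in control and 653, 610.5 and 563 TPM in K36M FGOs. Pramel51 fell to 255, 341 and 437 TPM in control and 138, 303 and 519 TPM in K36M embryos (-1.01 ± 0.27, adjusted p = 0.00769), the smallest fall of the class. Pramel22 and Pramel47 completed the class at low levels, at most 19.3 TPM in a control FGO library, with differences of -2.55 ± 0.78 (adjusted p = 0.0171) and -2.32 ± 0.84 (adjusted p = 0.0428). Both calls were lost without any 1 of the FGO control libraries, with adjusted p between 0.0529 and 0.0839 for Pramel22 and between 0.118 and 0.140 for Pramel47, and with a pseudocount of 0.1 (adjusted p = 0.0644 and 0.140). Pramel47 also lost its call without any 1 K36M FGO library (adjusted p between 0.0542 and 0.0549).

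The zygotic members were low in FGOs, at most 5.78 TPM (Pramel19, K36M replicate 1) except for Pramel14, and well above 0 in most embryos. Pramel7, the UHRF1-directed member, was listed at 0 in all 6 FGO libraries. Pramel7 rose to 163, 346 and 598 TPM in control and 57.1, 372 and 581 TPM in K36M embryos (adjusted p = 3.31e-11 in controls; no fold is given against a group at 0). It was the most abundant zygotic member by the mean of either group of embryos. Its chromosome 2 neighbor Pramel6 was at 0 in 5 of the 6 FGO libraries and at 0.659 TPM in the other. Pramel6 ranged from 16.02 to 193 TPM in control and from 5.99 to 135 TPM in K36M embryos (5.68 ± 0.84 in controls, adjusted p = 1.81e-05).

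Pramel17 and Pramel19, a pair in the middle of chromosome 4, changed in the same direction. Pramel17 was at 0.048, 0.213 and 0.743 TPM in control and 0.172, 0.042 and 0 TPM in K36M FGOs. Pramel17 rose to 66.1, 140.0 and 231 TPM in control and 8.72, 119.6 and 331 TPM in K36M embryos (6.76 ± 0.78, adjusted p = 4.96e-07). It was the most even zygotic member among control embryos. Pramel19 was at 0.778, 2.32 and 2.29 TPM in control and 5.78, 1.14 and 0.735 TPM in K36M FGOs. Pramel19 rose to 16.6, 75.1 and 279 TPM in control and 47.5, 182 and 505 TPM in K36M embryos (4.96 ± 0.79, adjusted p = 4.50e-05). In both genes the stages did not overlap in either genotype.

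Pramel24, Pramel1 and Pramel16 come from the distal array of chromosome 4. Pramel24 was at 0, 0.718 and 1.25 TPM in control and 0.054, 0 and 0 TPM in K36M FGOs. Pramel24 rose to 47.6, 109 and 303 TPM in control and 8.76, 162 and 493.2 TPM in K36M embryos (6.41 ± 0.83, adjusted p = 2.91e-06). Every embryo lay above every oocyte library. Pramel1, with no windows elsewhere, was at 0, 0.241 and 0.481 TPM in control and 1.58, 0.947 and 0.955 TPM in K36M FGOs. Pramel1 rose to 51.5, 74.9 and 169 TPM in control and 23.9, 93.9 and 158 TPM in K36M embryos (6.16 ± 0.55, adjusted p = 8.01e-09). It was the most even zygotic member among K36M embryos, with a coefficient of variation of 50.1%. Pramel16 was at 0.679, 0.243 and 1.03 TPM in control and 0.600, 0 and 0.326 TPM in K36M FGOs. Pramel16 rose to 8.66, 47.9 and 93.8 TPM in control and 0, 60.8 and 309 TPM in K36M embryos (4.48 ± 1.15, adjusted p = 0.00544). Its K36M stages overlapped, because 1 embryo was at 0.

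The near-identical copies Pramel30 and Pramel14 were both zygotic but started from different oocyte levels. Pramel30 was at 0.432, 2.12 and 2.80 TPM in control and 0.455, 1.94 and 0.389 TPM in K36M FGOs. Pramel30 rose to 44.1, 108 and 167 TPM in control and 7.04, 76.9 and 134 TPM in K36M embryos (5.12 ± 0.69, adjusted p = 4.99e-06). Its stages did not overlap. Pramel14 was at 16.2, 24.1 and 22.5 TPM in control and 10.5, 7.05 and 11.7 TPM in K36M FGOs. Pramel14 rose to 38.1, 51.0 and 115 TPM in control and 15.9, 49.1 and 122 TPM in K36M embryos (1.52 ± 0.54, adjusted p = 0.0377). Its call was lost without any 1 of the FGO control libraries (adjusted p between 0.0855 and 0.157), with median-of-ratios scaling (1.21, adjusted p = 0.0883), with the replicate block (1.17, adjusted p = 0.146) and with control replicate 4 added (0.78, adjusted p = 0.587). Pramel14 was the single zygotic member with more than 10 TPM in every control FGO library. The sum of both copies was 22.7 ± 5.27 TPM (n = 3) in control FGOs and 164 ± 44.9 TPM (n = 7) in control embryos. The other zygotic members were Pramel11, Pramel20, Pramel31, Pramel4 and Pramel5, each at most 1.69 TPM in any FGO library and with medians between 14.3 and 35.99 TPM in control embryos. The sum of the near-identical Pramel20 and Pramel31 went from 0.329 ± 0.491 TPM (n = 3) in control FGOs to 65.7 ± 70.4 TPM (n = 7) in control embryos, and from 0.891 ± 0.698 (n = 3) to 44.97 ± 36.9 TPM (n = 8) in K36M. The call of Pramel31 was lost without any 1 of the FGO control libraries (adjusted p between 0.0606 and 0.0986), and that of Pramel5 without replicate 3 (adjusted p = 0.0723) or with control replicate 4 added (adjusted p = 0.0542).

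**Figure D2:**
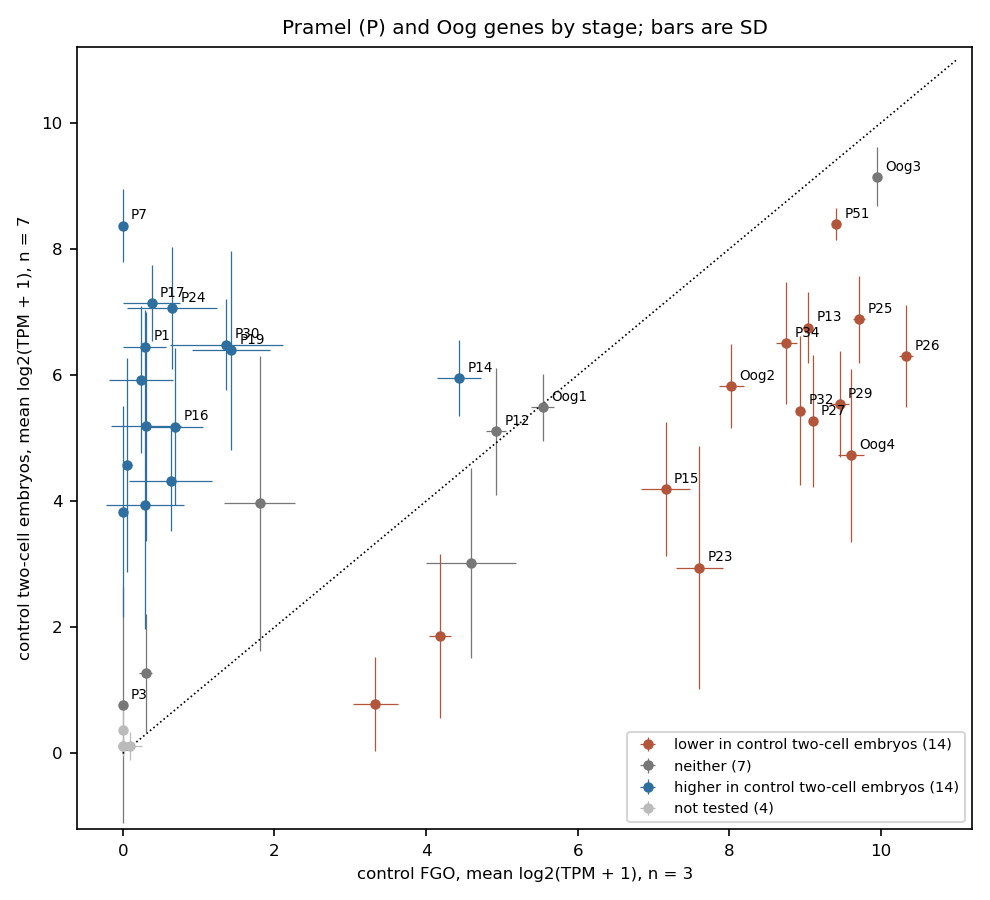
Mean log2(TPM + 1) of each member in control FGOs (x axis, n = 3) and control two-cell embryos (y axis, n = 7), with SD bars and a dotted line of equality; P stands for Pramel. Zygotic members (blue) line the left edge, with Pramel14 between them and the maternal members (red), and Oog3 and Oog1 lie near the line.

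Several members fell in neither class. Oog3 was the second member by level in control FGOs and the first in control embryos: 991, 989 and 973 TPM in control and 1052, 756 and 885 TPM in K36M FGOs, and 376, 535 and 940.4 TPM in control and 241, 479 and 1044 TPM in K36M embryos. Its difference in controls was -0.80 ± 0.32 with an adjusted p of 0.0656, although its control groups did not overlap, and it passed the threshold with array weights, with median-of-ratios scaling or in a fit of control libraries alone. Oog1, known to bind the Ras effector RalGDS, differed by -0.06 ± 0.48 (adjusted p = 0.958, 95% interval -1.04 to 0.93), with 40.5 to 49.9 TPM in control FGOs and 26.2 to 84.2 TPM in control embryos. Pramel12 (0.19 ± 0.93, adjusted p = 0.917) held 26.4 to 31.7 TPM in control FGOs and 9.71 to 66.2 TPM in control embryos, and Pramel48, Pramel21 and Pramel42 did not pass the test either. Pramel3, on the X chromosome, was above 1 TPM in 1 library alone, a control embryo with 30.8 TPM. Pramel50, Pramel37, Pramel39 and Pramel44 had a mean below 1 TPM and were not tested; their highest value was 7.79 TPM, for Pramel44 in a K36M embryo.

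K36M embryos were then compared with K36M FGOs. 28 of the 35 tested members passed the threshold, 13 higher and 15 lower, beside 29.3% of all genes (10.8% higher and 18.6% lower), and 33 of 35 members had the same class in both genotypes. The exceptions were Pramel20, whose rise missed the threshold in K36M (2.69 ± 1.20, adjusted p = 0.0950), and Pramel48, which was lower in K36M alone (-2.77 ± 0.83, adjusted p = 0.0133). In the test of the interaction neither passed the threshold (adjusted p = 1.00 for both). The sum of Pramel48 and its near-identical copy Pramel42 went from 24.8 ± 11.4 (n = 3) to 12.8 ± 11.8 TPM (n = 7) in control and from 29.8 ± 12.9 (n = 3) to 5.09 ± 3.33 TPM (n = 8) in K36M. Of the 28 K36M calls 10 were lost in at least 1 alternative. Pramel11 (adjusted p = 0.0459), Pramel31 (0.0489), Pramel4 (0.0377) and Pramel5 (0.0198) lost theirs without any 1 of the K36M FGO libraries, with adjusted p up to 0.125, 0.147, 0.111 and 0.0812, and that of Pramel23 was 0.107 without K36M FGO replicate 1. Pramel48 lost its call without K36M FGO replicate 3 (adjusted p = 0.0874). The median of all genes was -0.18 in K36M and 0.00 in controls. The largest K36M differences were those of Pramel24 (6.88 ± 0.82) among rises and Oog4 (-6.61 ± 0.95) among falls, leaving aside Pramel7, which was at 0 in FGOs.

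The 2 classes were not separated along the chromosome. 26 members lie on chromosome 4, and 23 of them in 1014 kb near its end (chr4:143394441-144408467, mm10), between Pramel1 and Pramel13. In this array 10 members were maternal, 10 zygotic and 3 neither, and along the order of the genes the class changed 9 times in 19 steps between successive maternal or zygotic members. Pramel24, for example, lies between Pramel23 and Pramel25, and rose where both of these fell. Pramel11, Pramel16, Pramel14 and Pramel4 formed the longest run of zygotic members, and Pramel25, Pramel26 and Pramel27 the longest of maternal ones. Neither chromosome 5 (8 members) nor chromosome 12 (Oog1 and Pramel51) held a zygotic member. On chromosome 5, however, Pramel50, Pramel37, Pramel39 and Pramel44 were not tested and could not be called.

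**Figure D3:**
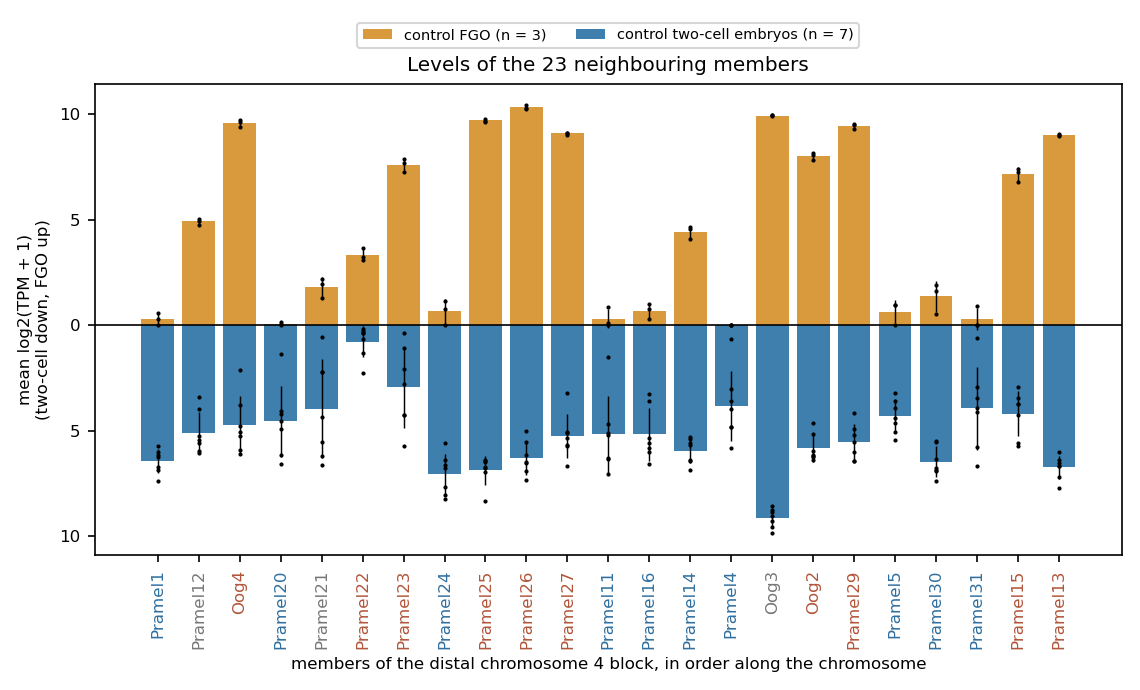
Mean log2(TPM + 1) of the 23 members of the distal chromosome 4 array in their order along the chromosome, in control FGOs (orange, upward) and control two-cell embryos (blue, drawn downward from 0 on the same scale), with SD bars and each library as a point. Maternal (red names) and zygotic (blue names) members alternate in short runs.

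Coding sequences were then compared within and between the classes. Among the 28 maternal or zygotic members, the closest other one by coding identity was of the same class for 24. None of the 196 pairs of a maternal with a zygotic member reached 70% identity (highest 68.1%, Pramel32 with Pramel6), whereas 45 of 91 maternal pairs and 13 of 91 zygotic pairs did. Pramel26, Pramel25, Oog4, Pramel29, Pramel51, Pramel27, Pramel32, Oog2, Pramel23, Pramel22, Oog3 and Oog1 formed a set in which every pair was at least 69.3% identical and no other member came above 68.1%; 10 of these 12 were maternal, and Oog3 and Oog1 were in neither class. This set was picked out after the identities had been seen. The maternal members Pramel34 and Pramel47 stood outside it and were closest to each other (98.7%). Pramel13 and Pramel15 also stood outside it, and the called members closest to them were zygotic (63.6% to Pramel31 and 64.2% to Pramel1). The zygotic members Pramel1 and Pramel6 were likewise closest to maternal ones (64.2% to Pramel15 and 68.1% to Pramel32). These 4 exceptions are among the 6 called members with no windows elsewhere; the other 2, Pramel32 and Pramel23, were closest to members of their own class. Copies that share windows may share reads, and the part of shared reads in this pattern was not tested.

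**Figure D4:**
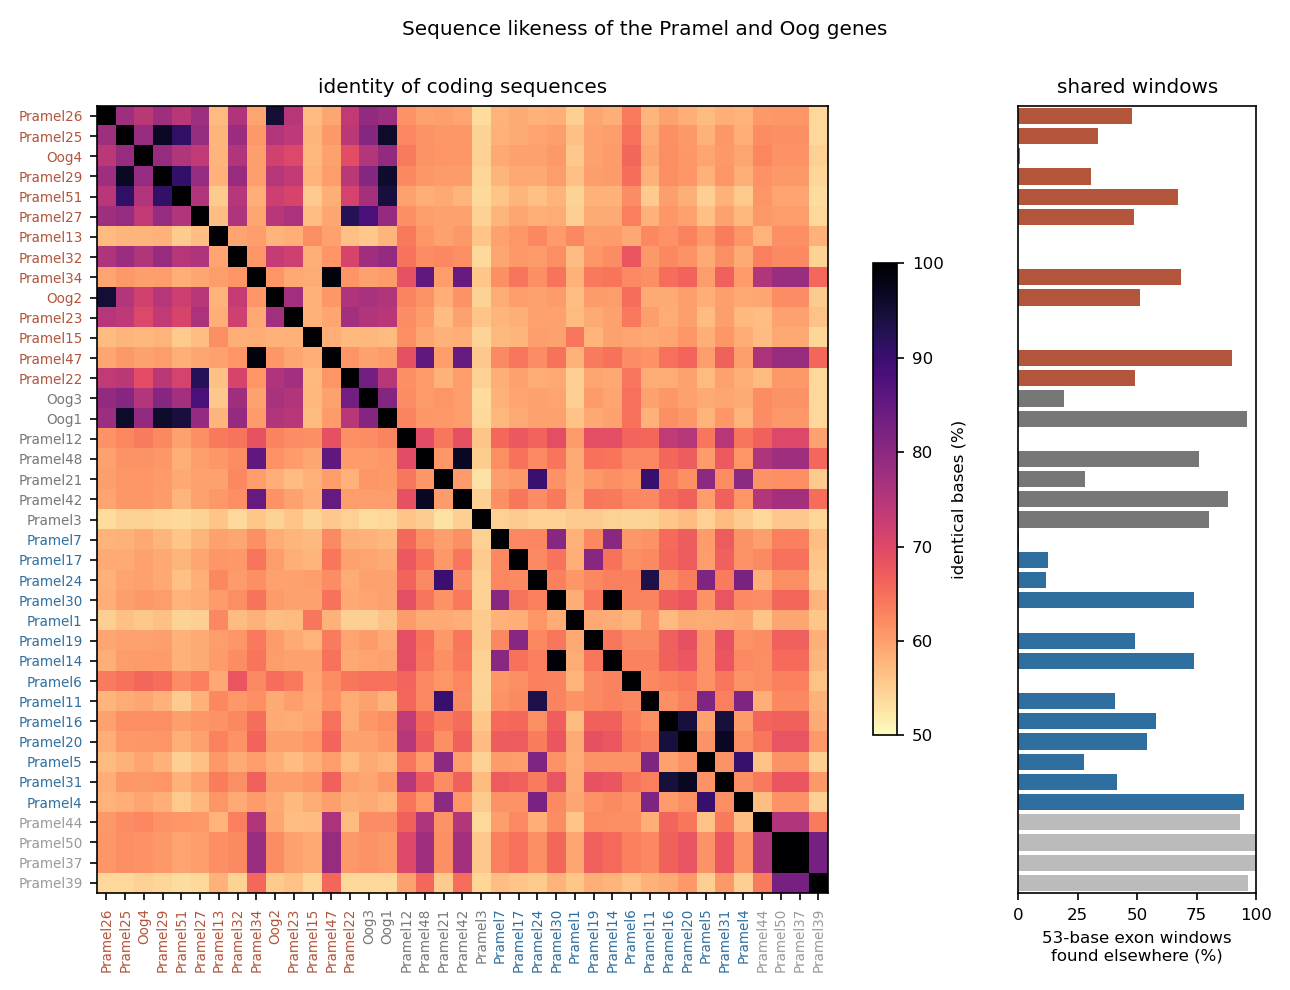
Percent identity of the coding sequences of all pairs of members (left, genes in the order of the plot of levels by library) and the percent of each member's 53-base exon windows found elsewhere on mm10 (right). The dark block at the upper left holds maternal members with Oog3 and Oog1, and the bars are longest for most chromosome 5 members, Oog1 and Pramel4.

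The promoters of the 2 classes were then read for short motifs, using the RefSeq table for GRCm38.p6 (250 bases before to 50 after each start), which held 33 of the 39 members. TAATTG, the core to which the oocyte homeobox factor NOBOX is known to bind, was present on either strand in 6 of the 11 maternal members with a promoter (Pramel32, Oog4, Pramel25, Pramel26, Pramel29 and Pramel13), in none of the 14 zygotic members, in 3 of the 8 other members (Pramel21, Oog3 and Pramel48) and in 8.0% of all 32851 promoters. GGATTA, a core of the OTX and OBOX type, was present in 4 of the 14 zygotic members (Pramel17, Pramel11, Pramel4 and Pramel5), in none of the 11 maternal members and in 7.06% of all promoters. The E-box CANNTG stood in 30 of 33 member promoters (72.3% of all promoters), CACGTG in none (7.15%), TAATTA in 4 (5.29%), none of these in a maternal or zygotic member, and TATAAA in 10 (13.6%), 4 of them maternal and 2 zygotic. TAATTG and TAATTA share the letters TAATT, and CACGTG is one form of CANNTG. These are matches of letters in copies that share ancestry, not measured sites. The 250 bases before the start of 4 maternal members (TAATTG or its complement CAATTA in capitals) are shown as examples of the match:
Oog4 (chr4:143450325-143450574, minus strand): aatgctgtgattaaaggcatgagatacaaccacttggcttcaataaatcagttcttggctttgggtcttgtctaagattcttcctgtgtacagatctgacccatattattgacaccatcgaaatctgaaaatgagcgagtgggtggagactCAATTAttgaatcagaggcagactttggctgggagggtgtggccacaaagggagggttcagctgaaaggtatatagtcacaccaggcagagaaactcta
Pramel29 (chr4:144213018-144213267, minus strand): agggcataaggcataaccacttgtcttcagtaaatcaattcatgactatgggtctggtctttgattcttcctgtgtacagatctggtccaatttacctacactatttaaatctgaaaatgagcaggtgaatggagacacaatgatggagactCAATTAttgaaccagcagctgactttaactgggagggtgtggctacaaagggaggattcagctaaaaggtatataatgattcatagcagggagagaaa
Pramel32 (chr4:88634187-88634436, minus strand): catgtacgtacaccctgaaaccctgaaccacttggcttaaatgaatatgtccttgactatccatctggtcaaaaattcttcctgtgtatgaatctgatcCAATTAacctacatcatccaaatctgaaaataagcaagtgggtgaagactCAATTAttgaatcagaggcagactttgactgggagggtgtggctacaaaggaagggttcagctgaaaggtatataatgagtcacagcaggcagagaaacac
Pramel26 (chr4:143816094-143816343, minus strand): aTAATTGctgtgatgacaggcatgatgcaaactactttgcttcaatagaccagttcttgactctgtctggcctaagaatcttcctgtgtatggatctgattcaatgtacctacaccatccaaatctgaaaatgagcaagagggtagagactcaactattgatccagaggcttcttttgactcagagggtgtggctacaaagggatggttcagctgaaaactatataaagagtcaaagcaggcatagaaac
In Oog4 and Pramel29 the motif begins 99 and 98 bases before the start, in Pramel32 it begins 151 and again 101 bases before it, and in Pramel26 it begins 249 bases before it. The same window of 3 zygotic members (GGATTA or its complement TAATCC in capitals) reads:
Pramel17 (chr4:101844023-101844272, minus strand): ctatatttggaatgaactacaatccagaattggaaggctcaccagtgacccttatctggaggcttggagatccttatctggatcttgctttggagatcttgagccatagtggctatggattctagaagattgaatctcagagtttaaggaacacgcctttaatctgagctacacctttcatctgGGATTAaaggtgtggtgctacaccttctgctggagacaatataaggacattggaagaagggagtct
Pramel5 (chr4:144280467-144280716, minus strand): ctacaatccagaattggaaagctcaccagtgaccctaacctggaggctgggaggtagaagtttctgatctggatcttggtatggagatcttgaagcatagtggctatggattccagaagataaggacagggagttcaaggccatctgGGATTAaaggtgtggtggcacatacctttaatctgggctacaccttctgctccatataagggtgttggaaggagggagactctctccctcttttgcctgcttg
Pramel11 (chr4:143900381-143900630, minus strand): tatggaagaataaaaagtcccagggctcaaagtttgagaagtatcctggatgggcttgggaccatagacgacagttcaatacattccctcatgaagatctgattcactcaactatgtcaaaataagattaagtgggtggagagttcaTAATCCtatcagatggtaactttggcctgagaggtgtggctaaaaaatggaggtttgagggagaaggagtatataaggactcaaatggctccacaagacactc
The motif of Pramel17 and Pramel5 lies in a promoter that is 100% and 89.3% soft-masked as repeat, as is 86.3% of that of Pramel4, while none of the Pramel11 promoter is. The promoters of members held few CpGs, with a median of 1 over the 33 members against 7 over all promoters. Pramel1 held 20 and Pramel3 held 9.

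Embryos differed far more from each other than oocyte pools did. Pooling, depth and PCR cycles also differed between the stages, and their parts cannot be told apart. Over members with a mean of at least 10 TPM, the median coefficient of variation was 9.53% in control FGOs (18 members), 13.1% in K36M FGOs (18), 62.4% in control embryos (31) and 85.3% in K36M embryos (28), beside 9.19%, 13.02%, 57.4% and 68.9% over all genes at that level. No maternal or zygotic member was at 0 in any of the 7 control embryos. The classes were called with these same embryos, so this is a description. The left-out control replicate 4 had 8 zygotic and 2 maternal members at 0. Among the 8 K36M embryos, replicate 5 had 5 zygotic members of the distal chromosome 4 array at 0 (Pramel20, Pramel16, Pramel4, Pramel5 and Pramel31), and replicate 8 had Pramel11 and Pramel31 at 0. Maternal members were at 0 in replicates 1, 2, 6, 7 and 8, the most in replicate 2 (Oog4, Pramel22, Pramel23 and Pramel15). K36M replicates 2 and 8 also listed the fewest genes above 0, 10894 and 11178, and replicates 5 and 8 had the lowest read totals of the K36M embryos; the part of library complexity and of depth in these zeros was not tested. The most even members were Pramel51 and Oog3, with coefficients of 17.3% and 33.8% in control and 35.4% and 45.4% in K36M embryos.

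K36M was compared with control within each stage to learn whether the mutant histone in the oocyte moved these genes. In FGOs, 0 of the 22 members tested passed the adjusted threshold, which 0.00726% of the 13775 genes did (1 gene). The study tested read counts with edgeR at a false discovery rate under 0.05 and reported more genes in FGOs. TPM are not counts, so limma was used here instead. 8 members had an unadjusted p under 0.05, 6 lower and 2 higher, where 10.5% of all genes did (5.34% lower and 5.15% higher). The median over the 22 members was -0.17, with 14 negative, against 0.013 over all genes. With 1 FGO library left out, the member median ran from -0.30 (without K36M replicate 1) to -0.067 (without K36M replicate 2). Without K36M replicate 1, 300 genes passed, among them Pramel27 (-0.58, adjusted p = 0.0205) and Pramel29 (-0.61, adjusted p = 0.0246). In that setting 12 of the members had an unadjusted p under 0.05, as did 20.3% of all genes. With other FGO libraries left out, this count ran from 4 (6.93% of all genes, without control replicate 3) to 8 (8.22%, without control replicate 2). Without a mean-variance trend it was 3 (9.04%).

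Of the 22 members tested in FGOs 14 were maternal and 3 zygotic. Of the 3 zygotic members 2 were lower in K36M and 1 higher, with a median of -0.51. Of the 14 maternal members, 10 were lower and 4 higher (6596 of all 13775 genes were lower), with a median of -0.20, and 5 of the lower and 1 of the higher had an unadjusted p under 0.05. The class was defined with the same control FGO libraries, so these directions are a description. Pramel29 showed -0.49 ± 0.11 (SE, 95% interval -0.75 to -0.24, adjusted p = 0.306), and its K36M libraries all lay below its controls. Its sum with Pramel25 and Oog1 was 1587 ± 88.1 TPM (n = 3) in control and 1281 ± 180.2 TPM (n = 3) in K36M FGOs. Smaller differences were those of Pramel27 (-0.39 ± 0.14), Oog4 (-0.33 ± 0.10), Oog2 (-0.28 ± 0.12) and Pramel26 (-0.27 ± 0.11), with adjusted p between 0.394 and 0.448 and groups that overlapped. In the opposite direction, Pramel32 was higher in every K36M library (0.23 ± 0.08, adjusted p = 0.396), as was Pramel12 (0.44 ± 0.13, adjusted p = 0.388), which belongs to neither class. The largest difference was that of Pramel14, from 20.9 ± 4.16 TPM (n = 3) in control to 9.75 ± 2.41 TPM (n = 3) in K36M FGOs (-1.03 ± 0.24, adjusted p = 0.306), and the sum of Pramel14 and its near-identical copy Pramel30 was 22.7 ± 5.27 against 10.7 ± 1.57 TPM. The K36M libraries lay below all controls for Pramel14, Pramel29 and Pramel51 (8.17% of all genes) and above them for Pramel32 and Pramel12 (7.46%). The sum of the 12 oocyte markers was also lower in all 3 K36M libraries than in the controls, and its part in these differences was not tested.

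In two-cell embryos, 0 of 35 members and 0 of 17362 genes passed the threshold (background 0%). Oog4 and Pramel15 had an unadjusted p under 0.05, both lower, where 7.71% of all genes did (6.5% lower and 1.2% higher). Oog4 differed by -2.06 ± 0.87 (adjusted p = 0.595) and Pramel15 by -2.36 ± 0.87 (adjusted p = 0.566), with groups that overlapped in both, and Oog4 was the single member below this limit in FGOs and embryos alike. The median over the members was -0.55, with 31 of 35 negative. Of all 17362 genes 11084 were negative as well, with a median of -0.26. After quantile normalization the medians were -0.30 for the members and -0.013 for all genes. K36M embryos also listed fewer genes above 0 (median 12994 against 14786), and its part in these shifts was not tested. Of the zygotic members, Pramel11 had the most negative value (-1.84 ± 0.99, adjusted p = 0.669) and Pramel19 the most positive (0.99 ± 0.57, adjusted p = 0.680). For Pramel7 the difference was -0.24 ± 0.39 (95% interval -1.05 to 0.57), and for Pramel11 the interval was wider, from -3.88 to 0.20. No member's embryos were separated by genotype (0.115% of all genes were).

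**Figure D5:**
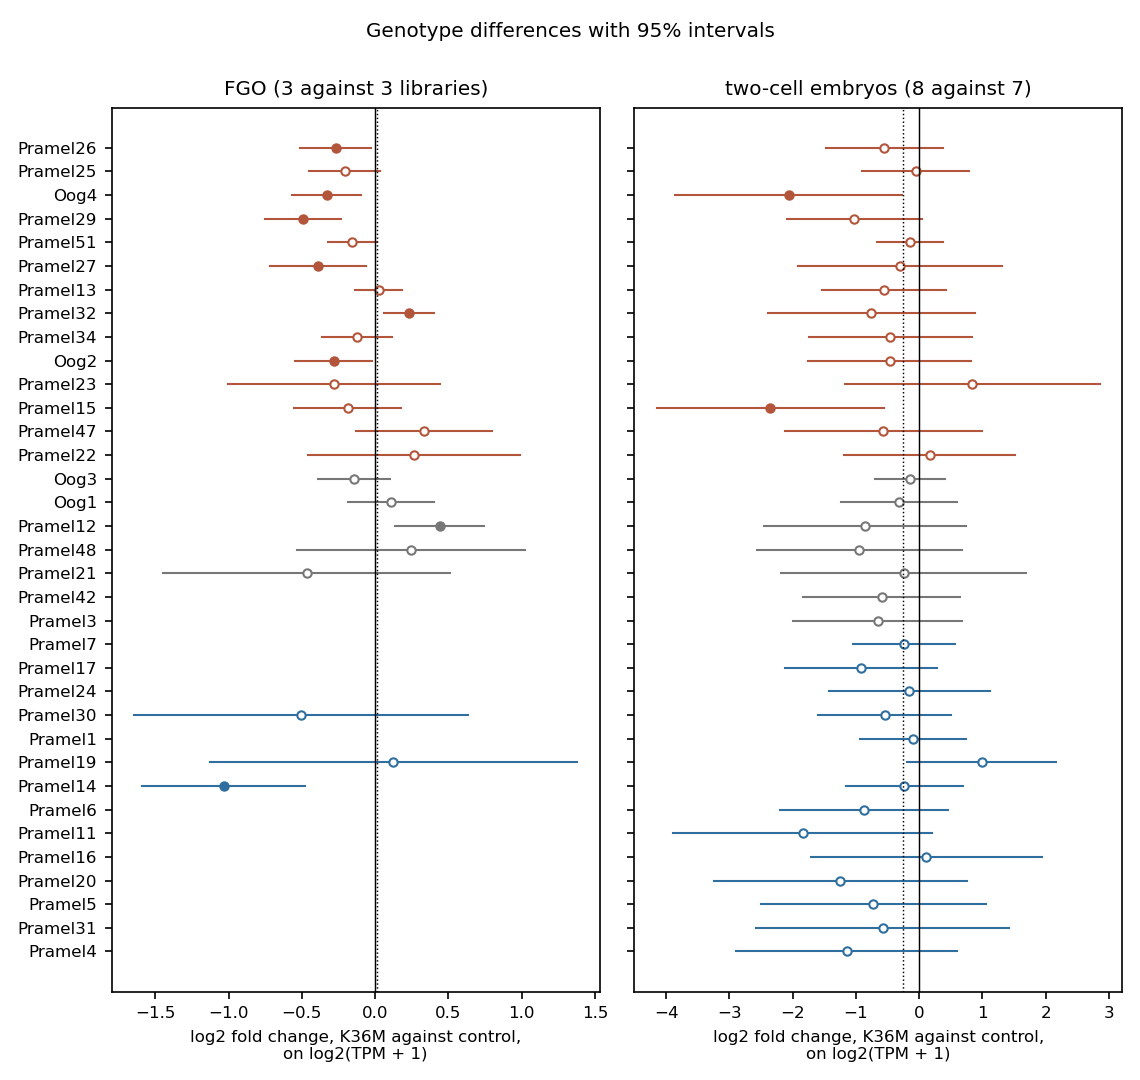
Log2 fold change of K36M against control with its 95% interval for the members tested in FGOs (left) and two-cell embryos (right, wider axis), on log2(TPM + 1); filled points have an unadjusted p under 0.05. Genes run from maternal (red) through neither (gray) to zygotic (blue), and the dotted line is the median of all genes. The FGO intervals of 5 maternal members (Oog4, Pramel26, Pramel27, Oog2 and Pramel29) lie left of 0 and that of Pramel32 right of it, and most of those in embryos cover 0.

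The difference between the 2 genotype effects was tested directly. No member passed the threshold for the interaction of genotype and stage (background 0%), and none had an unadjusted p under 0.05, where 1.15% of all genes did. The 3 most negative estimates were those of Pramel15 (-2.17 ± 1.34), Pramel20 (-1.81 ± 1.71) and Oog4 (-1.73 ± 1.36). The standard errors ran from 0.38 for Pramel51 to 1.76 for Pramel11.

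The partners of the PRAME-type ligase were described from a list of 30 genes of the CUL2 core, its regulators, other substrate receptors and targets; since Ube2r1 is another name of Cdc34 these are 29 genes, and all were tested. None passed the threshold in either genotype comparison, where the smallest adjusted p was that of Dnmt1 in FGOs (-0.52 ± 0.07, adjusted p = 0.0944). In the control stage comparison 8 were higher and 6 lower in embryos, where 13.4% and 13.2% of all genes were. The largest differences were those of Vhl, a CUL2 substrate receptor (4.99 ± 0.97, adjusted p = 0.00043), Dnmt1, the maintenance DNA methyltransferase (-4.04 ± 0.24, adjusted p = 5.27e-12), Cops5, the COP9 subunit that removes NEDD8 from cullins (-3.89 ± 1.11, adjusted p = 0.0112, but 0.0511 without FGO control replicate 3 and 0.0702 with a pseudocount of 0.1), and Zyg11a, another CUL2 receptor (3.51 ± 0.96, adjusted p = 0.00877). Uhrf1, the known target of PRAMEL7, was lower in the embryos, with a difference of -3.39 ± 0.38 (adjusted p = 2.79e-07). It is named here after its value was seen, and the UHRF1 protein was not measured. In K36M 6 of the list were higher and 9 lower, where 10.8% and 18.6% of all genes were, and Vhl did not pass the threshold there (2.06 ± 0.95, adjusted p = 0.107; interaction -2.93 ± 1.35, adjusted p = 1.00, unadjusted p = 0.0408).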

How the data were processed

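RNA was measured by SMART-Seq stranded libraries, 53-base paired-end. The authors trimmed reads (Trim Galore!), aligned them to mm10 with Hisat2, removed ribosomal RNA reads, counted with featureCounts and deposited TPM, which have the same total in each of 22 libraries; annotation, strand and multiple-match settings are not given in the sources used here. TPM hold no depth, so no counting interval was made. limma 3.58.1 (R 4.3.3) was fitted on log2(TPM + 1) over all genes with a mean of at least 1 TPM, with a mean-variance trend and Benjamini-Hochberg adjustment at 0.05, within each stage for genotype and over 21 libraries for stage and interaction. The labels do not say whether libraries came from separate females, so p-values measure the spread between libraries. Each fit used 1 residual spread per gene. In the stage fit it covers FGO pools and the more variable embryos of both genotypes alike. The fit was tested on simulated data. Values are given in full for the 20 members with the highest group means of at least 10 TPM (Pramel14 is added, chosen after its values were seen), and the other members by range. Tests were 2-sided. Alternatives were a pseudocount of 0.1, other filters (all genes above 0, mean of at least 5 TPM), quantile and median-of-ratios scaling, no trend, array weights, a replicate block, control replicate 4 added and single FGO libraries left out. No protein table was given, so the planned protein identity was replaced by coding identity (global alignment, Biopython 1.88); windows were matched on both strands. The members and lists were chosen with earlier results of these data known.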

Additional observations from a re-analysis of the deposited data

Results flagged for a closer look

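Values were checked for a library far from the rest of its group (Dixon's ratio, 48 groups of 7 or 8 embryos), and 8 were found. For normal values chance gives about 1 in 20. The TPM were not transformed and the sums hold the members themselves, so this rate need not apply. In control embryos, replicate 1 held 328 TPM of Pramel25 (next highest 124), the maternal members summed to 1616 TPM there (next 1145) and all members to 4188 TPM (next 3233), and replicate 6 held 53.04 TPM of Pramel23 (next 18.4). In K36M embryos, replicate 3 held 219 TPM of Pramel27 (next 63.4) and 309 TPM of Pramel16 (next 106), replicate 1 held 331 TPM of Pramel17 (next 159.5), and replicate 4 held 48.4 TPM of Pramel15 (next 9.43).

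Control embryo replicate 4, left out of all comparisons, lay above every other control embryo for Pramel26 (238 TPM, highest other 164), Oog2 (199.5 TPM, highest other 82.5) and Pramel51 (663 TPM, highest other 437). In the same library 8 of the 14 zygotic members were at 0 (Pramel17, Pramel19, Pramel20, Pramel24, Pramel14, Pramel4, Pramel5 and Pramel30) and Pramel7 was at 31.6 TPM, its oocyte markers summed to 6807 TPM and its two-cell markers to 269 TPM.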

How the results depend on the processing

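The number of members past the threshold stayed at 0 in embryos and in the interaction under every alternative run, and in FGOs it ranged from 0 to 2 when 1 FGO library was left out (2 without K36M replicate 1). In the control stage comparison the 28 calls (26.6% of all genes) became 24 with a pseudocount of 0.1 (22.8%), 25 with all genes above 0 (19.9%), 27 with a mean of at least 5 TPM (34.2%) or no trend (25.7%), 28 with quantile (30.6%) or median-of-ratios scaling (29.1%), 32 with array weights (56.1%), 25 with control embryo replicate 4 added (23.1%), 28 in control libraries alone (30.5%, chosen after seeing the data) and 20 to 27 without 1 FGO library (16.4% to 24.7%); 7 members lost their call without any 1 of the control libraries. In the K36M stage comparison the range was 21 (19.7%) to 31 (49.1%, array weights). Single embryos were not left out in turn, since their groups hold more than 5.

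Same-numbered libraries did not pair (correlations of their deviations between -0.101 and 0.101). With the replicate block, 24 members were called in the control stages (22.4% of all genes), 25 in the K36M stages (24.2%) and 0 in the other 3 comparisons, and Oog2 (-2.31, adjusted p = 0.054), Pramel34 (-1.54, adjusted p = 0.157), Pramel14 (1.17, adjusted p = 0.146) and Pramel47 (-1.95, adjusted p = 0.159) lost their calls in controls.

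Some differences that were not past the threshold changed sign, and the cause was not tested. In FGOs, that of Pramel19 was -0.019 with array weights and ran from -0.48 to 0.50 without 1 library, as did Pramel23 (-0.69 to 0.0056) and Pramel13 (-0.0013 to 0.068). In embryos, adding control replicate 4 gave 0.18 for Pramel7, 0.72 for Pramel24 and 0.26 for Pramel30, array weights gave 0.18 for Pramel24, median-of-ratios scaling gave 0.0098 for Pramel1 and 0.049 for Pramel25, quantile scaling gave 0.021 for Pramel27, and Pramel16 was -0.28 with a pseudocount of 0.1 and -0.097 with the replicate block. In the interaction, adding replicate 4 gave 0.18 for Pramel7, 0.25 for Pramel17, -0.086 for Oog3, 0.77 for Pramel30 and -0.11 for Pramel51; a pseudocount of 0.1 gave 0.16 for Pramel17, -0.093 for Pramel27 and 0.31 for Pramel30; quantile scaling gave -0.13 for Oog3, 0.030 for Oog2 and -0.10 for Pramel51; median-of-ratios scaling gave 0.090 for Pramel30; and the replicate block gave -0.042 for Pramel27 and -0.036 for Pramel51. Without 1 library, the interaction ran from -0.016 to 0.28 for Pramel27, -0.11 to 0.12 for Oog3, -0.33 to 0.38 for Pramel30 and -0.041 to 0.065 for Pramel51. Summed TPM of the members moved by less than 1 SD with the median of the libraries, control replicate 4 added or 1 FGO library left out. TPM give no depth, single embryos vary widely, and copies with shared windows may exchange reads, which limits statements on single genes.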

Other observations

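The 8-base words most shared within each class were looked for after the classes were known, and neither was present in all promoters of its class. AATCTGAA, one of 4 words that were tied for the most members, was present on either strand within 250 bases before the start in 8 of the 11 maternal members (Pramel32, Oog4, Pramel23, Pramel25, Pramel26, Pramel27, Oog2 and Pramel29), in 0 of the 14 zygotic members and in 1.05% of all promoters. AAGATCCA or its complement TGGATCTT was present in 7 of the 14 zygotic members (Pramel17, Pramel20, Pramel14, Pramel4, Pramel5, Pramel30 and Pramel31), in 0 of the 11 maternal members and in 0.846% of all promoters. The words were picked as the most shared in each class, the rarest among ties, so the counts are a description, and the copies share ancestry.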
